A study of Rattus norvegicus with 4 samples.

Results

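Messenger RNA of p53 target genes was followed in the mammary gland of Lewis rats across parity and a carcinogen. The genes were 9 established targets chosen by name: Cdkn1a, Ccng1, Gadd45a, Mdm2, Bax, Bbc3, Perp, Phlda3 and Sesn1. A feature is 1 measured spot type of the array, and features were assigned to the genes through the platform annotation. Of the 9 genes 8 had at least 1 feature, 10 features in all out of 20500, and the gene Bbc3 was not analysed here. The feature that represents each of the 8 genes passed the intensity filter, which removed the 2 dimmer features of Cdkn1a. The array holds 9653 named genes in total.

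Total RNA was measured on 1 array for each of 4 groups of 5 Lewis rats. Rats of the parous group delivered when 87 days old and nursed for 21 days. Their glands then regressed for 28 days before they were examined at 136 days. The AMV group held virgin rats of matched age, also examined at 136 days. The parous+MNU and AMV+MNU groups received 1 intraperitoneal dose of N-methyl-N-nitrosourea (MNU), 50 mg/kg, at 136 days. Their glands were taken after a further 3 weeks, at 157 days of age. MNU alkylates DNA and is widely used to induce mammary cancer in rats. MNU treatment, the added 3 weeks of age and, in parous rats, the longer time since weaning cannot be told apart. Whether the RNA of the 5 rats was pooled is not given in the sources used here, and no group has a second array. Median deposited intensities ran from 179 to 238 units, lowest on the parous+MNU array, and 390 to 795 features per array had no value. Differences of whole-gland RNA do not separate fewer cells of a type from less RNA per cell.

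The protein p53 is a transcription factor that accumulates when DNA is damaged, and it switches on genes that stop the cell cycle, start cell death or restrain p53 itself. It binds a response element built from a pair of decamers, each with a conserved centre. Among its targets, Mdm2 encodes the ubiquitin ligase that marks p53 for degradation, which closes a feedback loop. In rodents, early exposure to the hormones of pregnancy has been linked to nuclear p53 in mammary epithelium. The comparisons therefore asked whether target transcripts differed between parous and virgin glands, and 3 weeks after an alkylating agent.

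Promoter windows of 300 bases, from 250 bases before to 50 bases after a transcript start, were taken from RefSeq (rat assembly GRCr8) for 7 of the 9 genes. They were searched for the p53 decamer consensus, which reads the same on both strands. An exact decamer occurred in 4 of these 7 windows and in 7.98% of all 33469 windows. An adjoining pair of decamers, 20 bases long with no spacer and at most 1 mismatch to the consensus, occurred in 24 of all windows, 0.0717%. The windows of Cdkn1a and Ccng1 were among these 24. The stretches are shown because this element is what names the gene set, with the site in capitals, including the 1 base that does not match in each of the sites of Cdkn1a and Ccng1. A match describes letters and is not by itself a binding site. The Cdkn1a pair begins 201 bases before the start of the transcript (printed stretch chr20:7150691-7150790, plus strand). The Ccng1 pair begins 242 bases before its transcript start (printed stretch chr10:25685059-25685126, minus strand). The exact decamer of Gadd45a lies in the printed stretch chr4:97486828-97486857 (minus strand), and that of Sesn1 in chr20:46948537-46948566 (plus strand). The best adjoining pairs in these windows had 4 and 3 mismatches, and the Gadd45a pair did not include its exact decamer. Pairs with a spacer were not searched.
Cdkn1a: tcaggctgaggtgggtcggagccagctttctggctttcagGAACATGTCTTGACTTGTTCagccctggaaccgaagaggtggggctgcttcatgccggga
Ccng1: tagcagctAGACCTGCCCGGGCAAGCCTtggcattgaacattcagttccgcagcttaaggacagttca
Gadd45a: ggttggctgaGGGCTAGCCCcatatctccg
Sesn1: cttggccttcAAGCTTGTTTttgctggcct
The windows of Mdm2, Perp and Phlda3 held no exact decamer, which says only that these letters are not in this stretch.

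No target gene passed the test for parity or for MNU and age. In limma's additive model of both factors over the 4 arrays, 0 of 8 genes passed for parity and 0 of 8 for MNU at an adjusted p of 0.05. Over all 5587 genes tested, 1.24% passed for parity, 42 genes higher and 27 lower in parous glands, and 0.43% for MNU, 10 higher and 14 lower. At an unadjusted p under 0.05 the model counted 1 of 8 target genes for each factor, Mdm2 for parity and Phlda3 for MNU, against 9.92% and 12.8% of all genes. Adjusted p-values of the 8 genes ran from 0.386 to 0.941 for parity and from 0.278 to 0.948 for MNU. The 95% intervals of all 8 genes lay within 1.5-fold for both factors, as did 94.3% of all genes for parity and 94.1% for MNU. Each gene has 1 residual degree of freedom of its own and borrows 11.3 from the other genes. That residual is the disagreement between the MNU differences of virgin and parous glands. A dependence of 1 factor on the other and array noise cannot be told apart in it. These intervals measure the spread among the 4 arrays alone.

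In single pairs of arrays, a difference of at least 1.5-fold was seen in 0 of 8 target genes in each of the 4 pairs. The share of all genes was 1.65% for parous against virgin without MNU, 2.29% with MNU, 2.28% for MNU against untreated in virgin glands and 0.984% in parous glands. At 2-fold the count of target genes was again 0 of 8 in each pair, and the shares of all genes were 0.45%, 0.422%, 0.395% and 0.0863% in the same order. The central 95% of all genes ran from -0.36 to 0.42 on the log2 scale for the untreated parity pair, and Mdm2 at -0.39 was the 1 target gene outside it. In the other pairs all 8 genes lay inside the corresponding range. Over the 4 arrays the range of a target gene had a median of 0.29 on the log2 scale, against 0.26 for all genes. It ran from 0.14 for Sesn1 to 0.53 for Mdm2. The latter is a lower bound, because the untreated parous value of Mdm2 was raised to the floor.

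**Figure D1:**
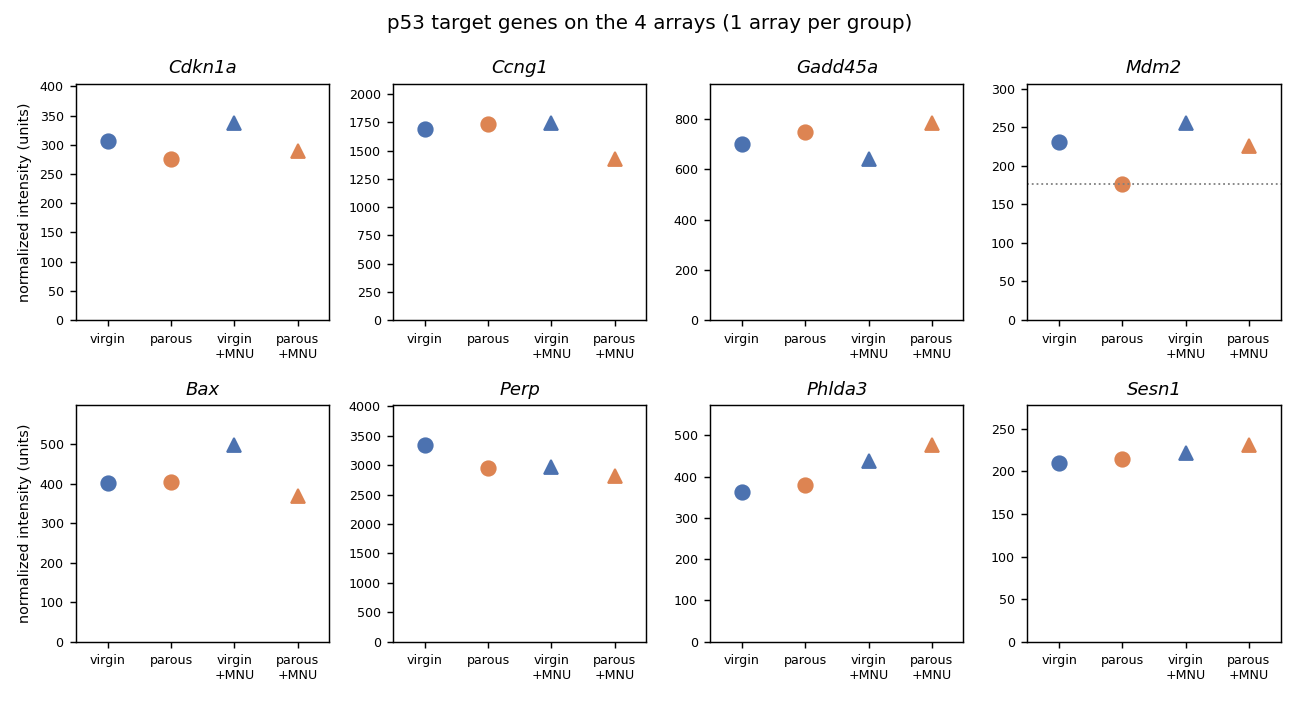
Normalized intensity (units, linear axis from 0) of the 8 measured p53 target genes on the 4 arrays, 1 point per array, with blue for virgin, orange for parous, circles for untreated and triangles for MNU. The dotted line in the Mdm2 panel is the floor of 176.9 units, at which the untreated parous value lies. Points of 1 gene differ by at most 1.44-fold, for Mdm2, whose range is a lower bound because its untreated parous value was raised to the floor.

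Cdkn1a encodes p21, an inhibitor of cyclin-dependent kinases and the principal arrest factor downstream of p53. Its normalized intensity was 307 units on the AMV array, 275 on the parous array, 337 on the AMV+MNU array and 290.0 on the parous+MNU array. Both parous values lay below both virgin values, and the virgin MNU array was the highest of the 4. The parous minus virgin difference was -0.16 without MNU and -0.22 with MNU on the log2 scale, with a mean of -0.19 ± 0.11 (SE, 2 arrays in each state, limma adjusted p = 0.647). The MNU difference was 0.14 in virgin and 0.08 in parous glands, with a mean of 0.11 ± 0.11 (limma adjusted p = 0.728) and a 95% interval from -0.13 to 0.35. As deposited, without scaling between arrays, the parous MNU difference of Cdkn1a read -0.27, where the median of all genes was -0.40. The other 2 features of Cdkn1a lay under the floor on all 4 arrays, at 105 to 116 and 119 to 131 units, and gave no usable difference.

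Ccng1 encodes cyclin G1, a cyclin with roles in the p53 and Mdm2 loop. It read 1695 units on the AMV array, 1735 on the parous array, 1745 on the AMV+MNU array and 1424 on the parous+MNU array. A single array, parous+MNU, was low, while the other 3 ran from 1695 to 1745 units. The differences that involve that array were -0.29 for parous against virgin with MNU and -0.29 for MNU against untreated in parous glands. The remaining pairs differed by 0.03 and 0.04. The limma means were -0.13 ± 0.12 for parity and -0.12 ± 0.12 for MNU (SE, 2 arrays per state, adjusted p = 0.822 and 0.714).

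Gadd45a encodes a small stress protein that binds PCNA and acts in growth arrest and repair. Its values were 700.1 units on the AMV array, 748 on the parous array, 642 on the AMV+MNU array and 784 on the parous+MNU array. Both parous values exceeded both virgin values. The parity difference was 0.10 without MNU and 0.29 with MNU, with a mean of 0.19 ± 0.11 (SE, 2 arrays in each state, limma adjusted p = 0.645). As deposited the second of these was -0.10, where all genes had a median of -0.36. The MNU difference of Gadd45a was -0.12 in virgin and 0.07 in parous glands, and the latter read -0.03 with median centring and -0.37 as deposited.

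Mdm2, the feedback inhibitor of p53, had the widest range of the set. It read 231 units on the AMV array, 255 on the AMV+MNU array and 225.4 on the parous+MNU array. On the parous array its normalized value of 171 units lay below the floor of 176.9 units and was raised to it, so that differences against this array are lower bounds in size. Both parous values lay below both virgin values. The parity difference was -0.39 without MNU, or -0.44 with no floor, and -0.18 with MNU. Its mean was -0.28 ± 0.11 (SE, 2 arrays per parity state), with an unadjusted p of 0.0275 and an adjusted p of 0.386 in limma. The MNU difference was 0.14 in virgin and 0.35 in parous glands, with a mean of 0.25 ± 0.11 (limma adjusted p = 0.393). With the 1st percentile of each array subtracted as background, the untreated parity difference became -0.67 and the parous MNU difference 0.61, both past 1.5-fold, as were 3.32% and 3.35% of all genes.

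Bax encodes the pore-forming member of the Bcl-2 family that opens the outer mitochondrial membrane in apoptosis. It read 403 units on the AMV array, 404 on the parous array, 499 on the AMV+MNU array and 369 on the parous+MNU array. The untreated arrays were alike and the MNU arrays lay on either side of them. The parity difference was 0.01 without MNU and -0.43 with MNU, the largest of the set in size in that pair, and the limma mean was -0.21 ± 0.13 (SE, 2 arrays per parity state, adjusted p = 0.650). The MNU difference was 0.31 in virgin and -0.13 in parous glands, with a limma mean of 0.09 ± 0.13 (adjusted p = 0.821). The MNU difference in virgin glands minus that in parous glands was 0.44, inside the central 95% of all genes, -0.48 to 0.54. With 1 array per group this dependence is itself the residual of the additive model, and it was not tested.

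Perp encodes a tetraspan protein of desmosomes in stratified epithelia that is also an apoptosis effector of p53 in mice. It read 3347 units on the AMV array, 2953 on the parous array, 2972 on the AMV+MNU array and 2817 on the parous+MNU array. The untreated virgin array was the highest, and both parous values lay below both virgin values by a narrow margin. The parity difference was -0.18 without MNU and -0.08 with MNU, with a mean of -0.13 ± 0.11 (SE, 2 arrays in each state, limma adjusted p = 0.802). The MNU difference was -0.17 in virgin and -0.07 in parous glands, but 0.05 and 0.13 with quantile normalization over all values. The sign of its MNU difference thus differed between these scalings.

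Phlda3 encodes a pleckstrin homology protein that competes with the kinase Akt for membrane lipids. It read 362 units on the AMV array, 380.4 on the parous array, 437 on the AMV+MNU array and 477 on the parous+MNU array. Both MNU arrays lay above both untreated arrays. The MNU difference was 0.27 in virgin and 0.33 in parous glands, and the mean was 0.30 ± 0.11 (SE, 2 arrays per MNU state). In limma this gave an unadjusted p of 0.0180, an adjusted p of 0.278 and a 95% interval from 0.06 to 0.54. As deposited the parous MNU difference was -0.08, where all genes had a median of -0.40. The parity difference of Phlda3 was 0.07 without and 0.13 with MNU (limma adjusted p = 0.838).

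Sesn1 encodes sestrin 1, a stress protein that restrains mTORC1 signalling. It varied least among the 8 genes, from 209 units on the AMV array and 214 on the parous array to 222 on the AMV+MNU array and 231 on the parous+MNU array. Its MNU values exceeded the filter limit of 214.9 units and both untreated values lay below it, so that the gene was kept through its MNU arrays and the direction of its MNU difference is no independent result. The mean MNU difference was 0.10 ± 0.11 (SE, 2 arrays per MNU state, limma adjusted p = 0.755) and its mean parity difference 0.05 ± 0.11 (limma adjusted p = 0.941). As deposited, without scaling, these means were -0.11 and -0.16, where the medians of all genes were -0.10 and -0.40 in the MNU pairs and -0.08 and -0.36 in the parity pairs.

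**Figure D2:**
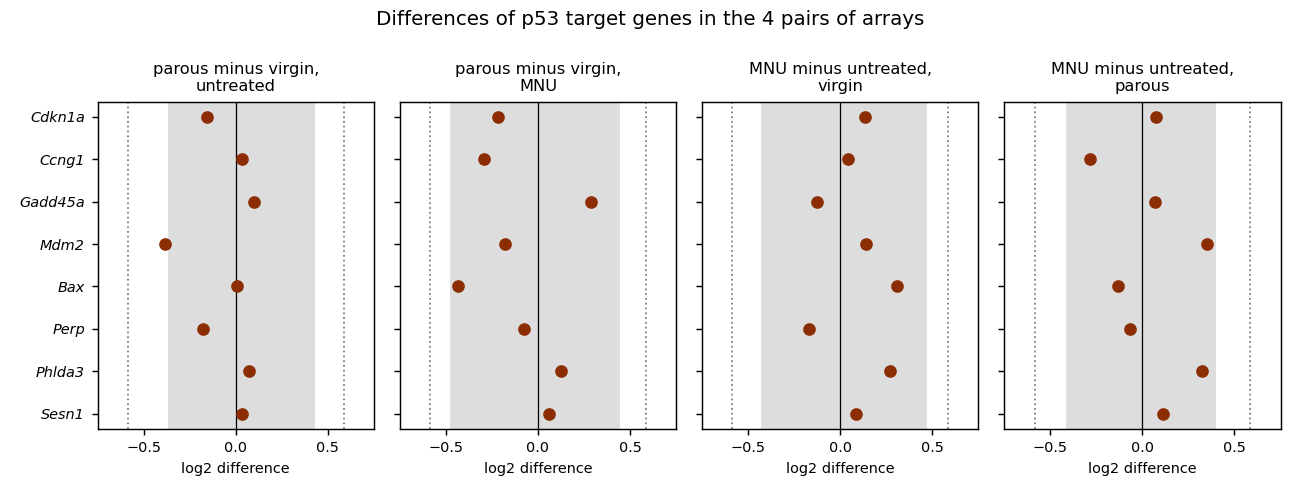
Log2 differences of the 8 target genes (points) in the 4 pairs of arrays, with 1 array on each side. Grey bands hold the central 95% of all genes and dotted lines mark 1.5-fold; Mdm2 at -0.39 in the untreated parity pair is the 1 point outside a band, and no point reaches a dotted line.

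As a set the genes did not share a direction. For parous against virgin, 5 of 8 were above 0 without MNU and 3 of 8 with MNU, against 47.0% and 47.1% of all genes. The medians were 0.02 and -0.13, against -0.01 for all genes in both pairs. For MNU against untreated, 6 of 8 were above 0 in virgin and 5 of 8 in parous glands, against 50.9% and 49.3% of all genes. The medians were 0.11 and 0.07, against 0.00 for all genes in both pairs. The MNU counts and medians include Sesn1, whose sign there is partly fixed by the filter. Differences larger than the robust SD of all genes in their pair occurred in 3, 4, 2 and 3 of the 8 genes in the order of these pairs. The shares of all genes were 33%, 33.7%, 32% and 32.5%. The 2 parous and 2 virgin arrays did not overlap in 4 of 8 target genes, Cdkn1a, Mdm2 and Perp lower and Gadd45a higher in parous glands, where 33.8% of all genes did not overlap. The MNU and untreated arrays did not overlap in 2 of 8, Phlda3 and Sesn1, both higher with MNU, where 41.5% of all genes did not. Sesn1 passed the filter through its MNU arrays alone, so its direction there is partly fixed by the filter and supports nothing. Without scaling all genes shifted by -0.36 for parity with MNU and by -0.40 for MNU in parous glands. In that form Bax at -0.77 and Ccng1 at -0.74 passed 1.5-fold in the first of these pairs, and Ccng1 at -0.79 and Perp at -0.60 in the second. These are 2 of 8 target genes in each pair, where 15.6% and 19.2% of all genes passed.

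**Figure D3:**
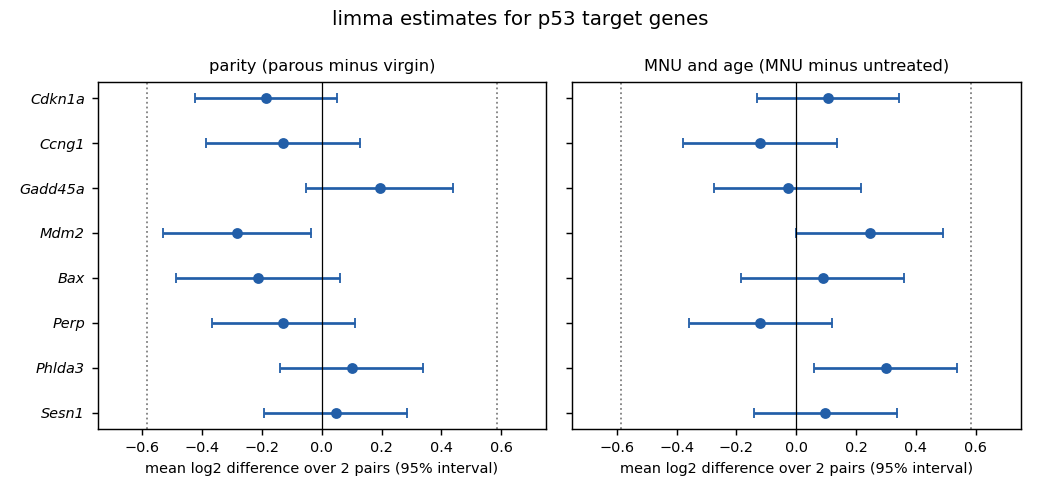
Mean log2 differences of the 8 target genes over both pairs of arrays for parity (left) and for MNU and age (right), with 95% intervals from limma and dotted lines at 1.5-fold. Every interval lies between the dotted lines, the outermost ends being -0.53 (Mdm2, parity) and 0.54 (Phlda3, MNU); the intervals of Mdm2 for parity and Phlda3 for MNU leave out 0.

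**Figure D4:**
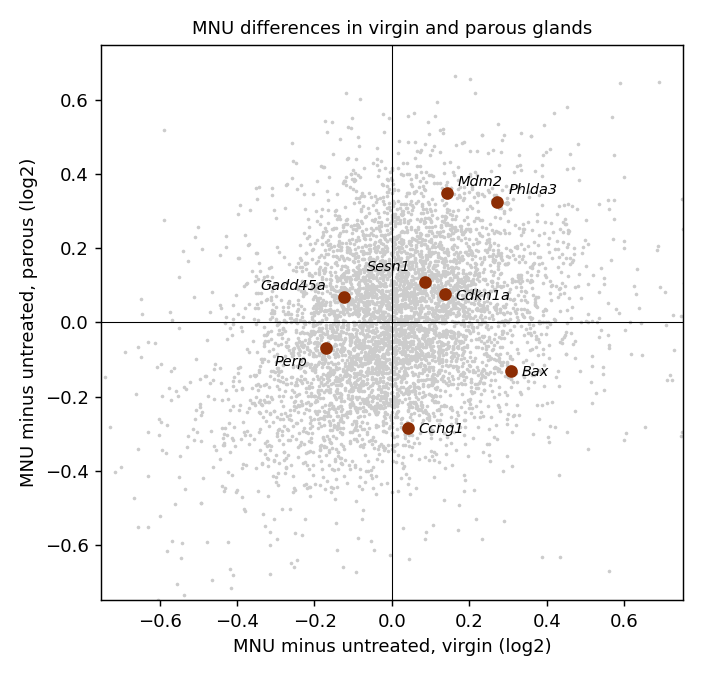
MNU minus untreated log2 differences in virgin glands (horizontal) and parous glands (vertical) for the 5587 genes with values on all 4 arrays (grey) and the 8 target genes (brown); 75 genes lie beyond the axes. Phlda3, Mdm2, Cdkn1a and Sesn1 lie above 0 in both, Perp below 0 in both, and Bax, Ccng1 and Gadd45a have opposite signs. The signs of Sesn1 are partly fixed by the filter, which it passed through its MNU arrays alone.

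Genes that act on p53 were examined from a separate list. Of 20 listed regulators 12 had a feature, 8 passed the filter, and 0 of the 7 with values on all arrays passed limma for either factor. Mdm4, a relative of Mdm2 that blocks the activation domain of p53, read 248 units on the AMV array, 249.98 on the parous array, 294 on the AMV+MNU array and 264 on the parous+MNU array. It was highest on the virgin MNU array, with an MNU difference of 0.25 in virgin and 0.08 in parous glands (limma adjusted p = 0.592). Usp7, a deubiquitinase of Mdm2 and p53, had MNU differences of -0.16 and -0.33 (limma adjusted p = 0.395). Atm, the kinase that signals double-strand breaks, had a parity difference of 0.17 without and 0.11 with MNU (limma adjusted p = 0.777). Ybx1, a nucleic acid binding protein that interacts with p53, was blank on the parous+MNU array and differed by -0.19 in the untreated parity pair. The checkpoint kinase genes Chek1 and Chek2 did not pass the filter.

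Among 38 other reported p53 targets, 26 had a feature and 20 passed the filter, and 0 of 18 tested passed limma for parity or for MNU. In the 4 pairs their medians were 0.01, 0.02, -0.06 and 0.04. A single gene reached 1.5-fold in any pair, Igfbp3, which encodes a binding protein of insulin-like growth factors. It read 4470 units on the AMV array, 3763 on the parous array, 2523 on the AMV+MNU array and 3606 on the parous+MNU array. The virgin MNU array stood low, and the MNU difference was -0.82 in virgin and -0.06 in parous glands (limma mean -0.44 ± 0.15, SE, 2 arrays per MNU state, adjusted p = 0.255). Cd82, a tetraspanin described as a metastasis suppressor, had parity differences of 0.20 and 0.47 (limma adjusted p = 0.272). Gpx1, a glutathione peroxidase, had parity differences of -0.38 and -0.09 (limma adjusted p = 0.562), and Apaf1, the core of the apoptosome, of 0.01 and 0.33 (limma adjusted p = 0.730).

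Relatives of the target genes were compared for reference. Of 14 listed, 11 passed the filter and 0 of 8 tested passed limma for either factor. Cdkn1b encodes p27, a kinase inhibitor related to p21. It read 760.0 units on the AMV array, 1100 on the parous array, 697 on the AMV+MNU array and 872 on the parous+MNU array. Both parous values lay above both virgin values, the reverse of Cdkn1a, where 33.8% of all genes did not overlap in either direction. The contrast between Cdkn1b and Cdkn1a was not tested. The parity differences of Cdkn1b were 0.53 and 0.32 (limma mean 0.43 ± 0.11, SE, 2 arrays per parity state, adjusted p = 0.114). Gadd45g, a relative of Gadd45a, had MNU differences of -0.63 in virgin and -0.41 in parous glands (limma mean -0.52 ± 0.11, SE, 2 arrays per MNU state, adjusted p = 0.0756). Phlda1, a relative of Phlda3, had parity differences of 0.11 and 0.54 (limma adjusted p = 0.352). Emp1, a tetraspan membrane protein of the family of Perp, had MNU differences of -0.61 and -0.05 (limma adjusted p = 0.322).

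In the Bcl-2 family around Bax, 10 of 16 listed genes passed the filter, and 0 of 9 tested passed limma for either factor. Bnip3, a mitochondrial protein of hypoxia and mitophagy, had MNU differences of 0.40 in virgin and 0.46 in parous glands (limma mean 0.43 ± 0.11, SE, 2 arrays per MNU state, adjusted p = 0.134). Bnip3l, its relative, was blank on the parous+MNU array and had a parity difference of 0.41 without MNU. Bok, a Bax-like gene, had MNU differences of 0.04 and 0.43 (limma adjusted p = 0.461), and Mcl1, an antiapoptotic gene, of 0.01 and -0.33 (limma adjusted p = 0.631). Of 12 cyclins, kinases and replication factors restrained by p21, 3 passed the filter: Ccnd3, Cdk2 and Pcna. Pcna, the sliding clamp of DNA replication, was higher by 0.42 on the virgin MNU array and blank on the parous+MNU array. Ccnd3 and Cdk2 differed by at most 0.13 in size in every pair with values.

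Sums of some cell type markers had the same order of arrays as some of these genes. The summed intensity of 4 skeletal muscle markers was 2013 units on the AMV array, 1418 on the parous array, 2174 on the AMV+MNU array and 1672 on the parous+MNU array. This is the order of the arrays for Cdkn1a and for Mdm2. The share of all genes with this order was not counted, so the match is a description only. Among the markers Myl11 and Actn3 had this order and fell with parity (limma mean -0.79 and -0.59, adjusted p = 0.00799 and 0.0199). Tnni2 did not have it, at 841 units on the AMV array and 829 on the AMV+MNU array. Ckm lay at the floor on both parous arrays. It passed the filter through the AMV+MNU array alone, at 224 units, which is the array where the muscle sum is highest. The summed intensity of 3 adipocyte markers gave the order of the muscle sum too, from 3392 units on the parous array to 4467 units on the AMV+MNU array. Of these 3 genes only Cidec has that order by itself. Pparg was highest on the parous+MNU array, at 2090 units against 1836 on the AMV+MNU array, and Lep read 290.0 and 289 units on these arrays. Cidec, a lipid droplet protein, read 2033 units on the AMV array, 1492 on the parous array, 2342 on the AMV+MNU array and 1612 on the parous+MNU array. Its mean parity difference was -0.49 ± 0.11 (SE, 2 arrays in each state, limma adjusted p = 0.0550). Adipoq, Lpl and Cfd were blank on all 4 arrays and Fabp4 on both MNU arrays, and the level behind a blank is unknown. The part of muscle and fat in the values of Cdkn1a and Mdm2 was not tested. Beside Perp, an epithelial gene, 5 basal epithelium markers summed to 4249 to 4623 units and 6 luminal markers to 11471 to 16074 units. The luminal sum was highest on the parous array and lowest on the AMV+MNU array, an order that Perp did not have. In the luminal list Cldn7, a claudin of epithelial tight junctions, read 1595 units on the AMV array, 2455 on the parous array, 1437 on the AMV+MNU array and 989 on the parous+MNU array. Its MNU difference was -0.15 in virgin and -1.31 in parous glands (limma adjusted p = 0.156). Muc1 rose and Krt7 fell with parity (limma mean 0.59 and -0.56, adjusted p = 0.0199 and 0.0281). The sums of 5 macrophage and lymphocyte markers ran from 5889 to 6532 units and those of 5 endothelium and fibroblast markers from 4789 to 5356 units, and no gene of these lists passed limma. In the first, Cd14 differed by 0.69 in the untreated parity pair and Ptprc by 0.52 in the MNU parity pair. In the second, Lum differed by -0.58 in the MNU parity pair and Pdgfra by -0.29 for MNU in parous glands. In the basal list Krt5 differed by 0.40 for MNU in virgin glands and Oxtr by 0.35 for MNU in parous glands, and neither passed limma.

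Mdm2 had the widest range of the set and was used to look for genes with a like profile. Over the 4 arrays, the genes with the smallest root mean square distance from the centred log2 profile of Mdm2 were Psmd2 at 0.03, Pcyox1 at 0.04 and Sccpdh at 0.04, out of 5586 compared. Psmd2, a subunit of the proteasome's regulatory particle, read 3950 units on the AMV array, 3201 on the parous array, 4400.1 on the AMV+MNU array and 3917 on the parous+MNU array. With 4 arrays, and with the parous value of Mdm2 at the floor, such closeness is a description only.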

How the data were processed

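Total RNA of 4 mammary gland samples was measured on 1 array each. The values are linear intensity readings with at most 3 significant digits, as the authors deposited them. Image analysis, background correction and the meaning of blanks: not given in the sources used here. Of 20500 features 12750 carried 1 gene symbol, 5 several and 7745 none, and 12720 were matched by gene identifier to current names of rat assembly GRCr8. Quantile normalization used a curve from the features present on every array, extended to the rest by interpolation. Normalized values under the pooled 40th percentile (176.9 units) were set to it before taking log2. Features with no array over the pooled 50th percentile (214.9 units) were dropped, leaving 11113 features and 6187 genes, each represented by its brightest feature. Blanks were never filled in. Single pairs gave differences without a p-value. An additive model of parity and MNU was fitted with limma 3.58.1 in R 4.3.3 (lmFit, eBayes without trend, Benjamini-Hochberg adjustment over the 5587 genes with values on 4 arrays). Its p-values reflect only the scatter of these 4 arrays, which may be technical or a dependence of the MNU difference on parity, and 4 arrays give little precision. The procedure was also run on simulated data, with changes planted for parity only and only in brighter genes. That run does not bear on changes for MNU or in dim genes such as Mdm2 and Sesn1. Alternatives covered scaling, background, floor, filter, choice of feature, fold threshold and variance trend. Figures used matplotlib 3.10.9 in Python 3.11.15. The target genes and comparison lists were chosen with earlier results of these data known. Genes named beyond the targets were Mdm4, the 3 genes closest to Mdm2 in profile and, from each list, genes passing limma and up to 4 with the largest difference (2 in marker lists). Genes mentioned only as not passing the filter or as blank are exceptions, as are Tnni2, Ckm, Pparg and Lep. These exceptions were named after their values were seen. Lists share some genes.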

Additional observations from a re-analysis of the deposited data

Results flagged for a closer look

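Among the genes named above, 3 had parity differences of opposite sign in the untreated and the MNU pair, each larger than the robust SD of all genes in its pair. With 1 array per group the difference between the pairs was not tested. Igfbp3 stood at -0.25 without MNU and 0.52 with MNU. Emp1 stood at -0.30 and 0.26. Cldn7, from the luminal list, stood at 0.62 and -0.54. None of the 8 p53 target genes met this criterion. The 3 genes had been named for the size of their differences in these same arrays. The share of all genes that meet the criterion was not counted, so these counts are a description only. Groups of 1 array allow no search for arrays that stand apart within a group.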

How the results depend on the processing

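No p53 target gene tested passed limma for parity or for MNU under the main setting or any of the 9 alternatives run. Of these, the strict filter tested 6 of the 8 genes, without Mdm2 and Sesn1. Over all settings the lowest limma adjusted p for parity was 0.240, for Mdm2 with the 1st percentile subtracted. For MNU it was 0.156, for Phlda3 with quantile normalization over all values. Counts over all genes were less stable. The 69 genes for parity became 113 with median centring, 128 with the strict filter, 10 when features of a gene were averaged and 0 without a filter, where 735 had an unadjusted p under 0.05. The 24 genes for MNU became 70 as deposited, 106 with median centring, 97 with quantile normalization over all values, 12 with the 1st percentile subtracted, 5 with no floor, 106 with the strict filter, 5 with the mean of features and 0 without a filter, where 831 had an unadjusted p under 0.05. Scaling also moved the direction of the calls. Genes higher and lower numbered 13 and 35 for parity and 4 and 66 for MNU as deposited, 56 and 57 and then 30 and 76 with median centring, and 73 and 24 for MNU with quantile normalization over all values. For differences of at least 1.5-fold, in the order parity untreated, parity with MNU, MNU in virgin and MNU in parous glands, the counts of 99, 130, 133 and 57 genes became 199, 286, 291 and 194 with the 1st percentile subtracted and 27, 24, 23 and 5 at 2-fold. As deposited the second and last were 911 and 1144, and with the mean of features the last was 90. Target genes past 1.5-fold numbered 2 as deposited in each of parity with MNU and MNU in parous glands, and 1, Mdm2, with the 1st percentile subtracted in each of parity untreated and MNU in parous glands. Of 388 values of single target genes under the alternatives, 24 took the other sign, 18 of them as deposited; the causes were not tested. No paired analysis was possible because each group has 1 array. Leaving out an array leaves no residual degree of freedom. Sesn1 and Mdm2 lie near the floor, where signal over background limits the measured differences. Cdkn1a also depended on background. With the 1st percentile subtracted its parity difference went from -0.16 to -0.22 without MNU and from -0.22 to -0.30 with MNU.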
